A study of Arabidopsis thaliana with 4 samples.

Results

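Genes for 6 membrane transport proteins and *CASP5*, a gene of the endodermal barrier, were followed in *Arabidopsis thaliana* seedlings treated with auxin, 7 genes read by 7 of the 22746 probe sets tested. The genes are *PIP2;4* (AT5G60660), *TIP2;3* (AT5G47450), *BOR1* (AT2G47160), *CAX1* (AT2G38170), *AAP3* (AT1G77380), *PHO1* (AT3G23430) and *CASP5* (AT5G15290). They were picked because their transcripts were lower after auxin in these same arrays, so their decrease is described below and is not tested. The IAA seedlings were Columbia wild type (Col-0), 5 days old and grown in light, held for 2 h in a 10 µM solution of the auxin indole-3-acetic acid (IAA), with 2 arrays. The mock seedlings had the same genotype, age and light and were held in water alone for 2 h, with 2 arrays. RNA was prepared from the seedlings, and the number of seedlings behind each array is not known here. Values are expression intensities made by the authors with the RMA method, on a linear scale with no physical unit, and 2 arrays a group limit the precision of each.

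Water and dissolved nutrients enter a plant through the root and must cross living cells before they reach the xylem. Aquaporins are channels that let water through the plasma membrane (PIP proteins) or the membrane of the vacuole, the tonoplast (TIP proteins). Other carriers move single nutrients out of root cells toward the xylem or into the vacuole. The endodermis, the cell layer around the vascular cylinder, carries the Casparian strip, a lignin band that seals the space between cells, and CASP proteins mark the membrane where that band is laid down. No sequences are printed, since the sources used here hold none for these genes.

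All 7 genes had lower intensities in both IAA arrays than in both mock arrays, and the geometric IAA means, which all fold changes below compare, lay between 45.7% and 65.6% of the mock means. The log2 changes, IAA over mock, ran from -1.13 for *TIP2;3* to -0.61 for *PHO1*, with a median of -0.76, beside a median of -0.02 over all probe sets. Each of the 7 met the rule used in the study, which asks for a log odds of change (B) above 0 and an adjusted p below 0.10 in limma, as did 0.374% of all probe sets in the lower direction and 1.48% in the higher direction. Without the rule on B all 7 passed too, as did 2.26% of all probe sets downward and 3.87% upward. Nothing is read from these counts of 7, since the genes were picked from the same comparison. For the same reason the values that chose them, adjusted p from 0.00865 to 0.0330 in limma and B from 0.12 to 2.55, are only a description. Both IAA arrays lay below both mock arrays in 29% of all probe sets, and above them in 24.5%. A gap between the lowest mock and the highest IAA array at least as wide as that of *PHO1*, the narrowest of the 7 at 1.48-fold, was seen in 0.44% of all probe sets. In RNA from seedlings, a lower transcript level per cell and fewer cells that express the gene cannot be told apart.

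Both aquaporin genes were among the larger decreases. *PIP2;4*, which encodes an aquaporin of the plasma membrane, had intensities of 263 and 278 in the IAA arrays, against 485 and 571 in the mock arrays. The IAA arrays lay close together and the mock arrays were farther apart, with a range of 5.58% of the group mean after IAA and of 16.4% in mock. The group means were 270 ± 10.7 after IAA and 528 ± 61.1 in mock (SD, n = 2 each), a 1.95-fold decrease (log2 change -0.96 ± 0.11, SE). *TIP2;3*, which encodes an aquaporin of the tonoplast, gave 352 and 316 after IAA, against 692 and 769 in mock. The lowest mock array was 1.97-fold above the highest IAA array, the widest gap of the 7 genes. Its means of 334 ± 25.2 after IAA and 731 ± 54.3 in mock (SD, n = 2 each) differ by 2.19-fold (log2 change -1.13 ± 0.11, SE), and *TIP2;3* ranked 11 by size among the 85 probe sets called lower.

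**Figure D1:**
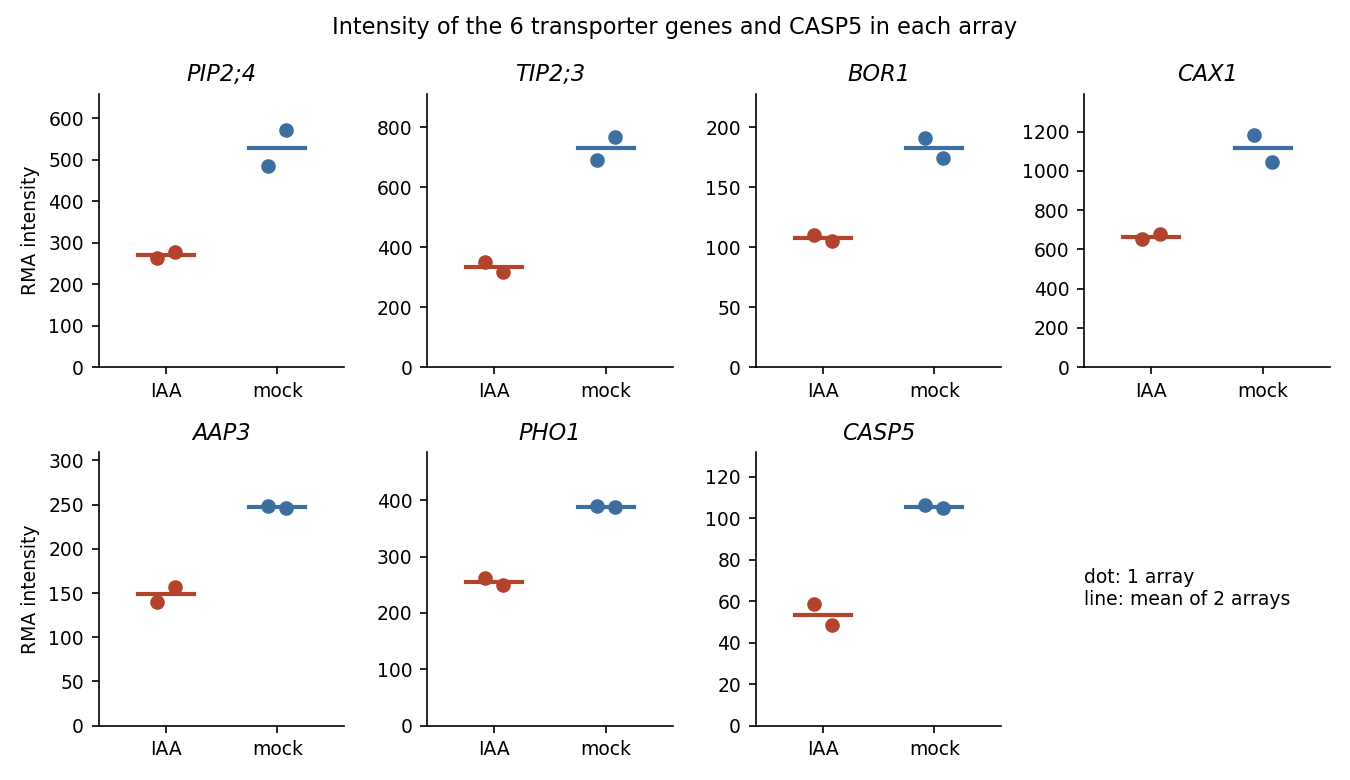
RMA intensity (linear scale, from 0) of *PIP2;4*, *TIP2;3*, *BOR1*, *CAX1*, *AAP3*, *PHO1* and *CASP5* in the 2 IAA arrays (red, left) and the 2 mock arrays (blue, right). Each dot is 1 array and each line the mean of 2 arrays, and in every panel both IAA dots lie below both mock dots, from 316 and 352 against 692 and 769 in *TIP2;3* to 249 and 261 against 387 and 389 in *PHO1*.

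The carriers that load nutrients into the xylem had smaller changes than the aquaporins, a difference that was not tested. *BOR1*, a boron exporter needed for loading boron into the xylem, had intensities of 110 and 105 after IAA, against 191 and 174 in mock. The arrays of a group lay close together, with ranges of 4.58% of the mean after IAA and 9.17% in mock. The means of 107 ± 3.48 and 183 ± 11.8 (IAA and mock, SD, n = 2 each) give a 1.70-fold decrease (log2 change -0.76 ± 0.10, SE). *PHO1*, which exports phosphate from root stele cells to the xylem, gave 261 and 249 after IAA, against 389 and 387 in mock. It had the most even mock arrays of the 7 genes, with a range of 0.481% of their mean, and also the smallest change. With means of 255 ± 8.79 after IAA and 388 ± 1.32 in mock (SD, n = 2 each) it was 1.52-fold lower (log2 change -0.61 ± 0.09, SE). *PHO1* also lay nearest to the limit of the call, with a B of 0.12, and ranked 84 of the 85 lower probe sets by size. Nearest to the limit among named transport genes that were lower but not called was *OPT3*, a gene of the oligopeptide transporter family with a part in iron signaling between shoot and root. It had intensities of 156 and 143 after IAA, against 221 and 237 in mock (log2 change -0.61 ± 0.10, SE), with a B of -0.43.

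*CAX1* and *AAP3* changed by nearly the same factor. *CAX1*, an exchanger that moves calcium into the vacuole against protons, had intensities of 653 and 678 after IAA, against 1184 and 1047 in mock. Here the spread was in mock, where the arrays differed by 12.3% of their mean, compared with 3.73% after IAA. The means of 665 ± 17.6 after IAA and 1116 ± 97.3 in mock (SD, n = 2 each) differ by 1.67-fold (log2 change -0.74 ± 0.10, SE). *AAP3*, a permease for amino acids, gave 140 and 157 after IAA, against 249 and 247 in mock. In this gene the spread was in the IAA arrays, at 11.7% of their mean against 0.881% in mock. The means were 148 ± 12.3 after IAA and 248 ± 1.54 in mock (SD, n = 2 each), again a 1.67-fold decrease (log2 change -0.74 ± 0.10, SE).

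*CASP5*, a gene of the Casparian strip and the only one of the 7 that encodes no transporter, had intensities of 58.4 and 48.3 after IAA, against 106 and 105 in mock. Its IAA arrays differed by 18.8% of their mean, the widest spread of any group of the 7 genes, while the mock arrays differed by 1.32%. The means of 53.4 ± 7.10 after IAA and 105 ± 0.98 in mock (SD, n = 2 each) give a 1.99-fold decrease (log2 change -0.99 ± 0.12, SE). The lowest array of *CASP5*, at 48.3, was above 37.6, the highest value of 27 control probe sets for *Bacillus* genes, which plant RNA should not light and which set the background here. That value came from 1 control probe set, and the next highest control reached 19.2. The log2 change of *CASP5* was -0.53 when 64 was added to all intensities first, and it still passed the call rule.

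The differences between arrays of 1 group had no common direction. Mock replicate 1 was the lower of the mock arrays in *PIP2;4* and *TIP2;3* and the higher in the other 5 genes. IAA replicate 1 was the lower of the IAA arrays in *PIP2;4*, *CAX1* and *AAP3* and the higher in the other 4. Of all 4 pairings of an IAA with a mock array, the smallest decrease in *PIP2;4* was -0.80 and the largest -1.12 on the log2 scale, and in *TIP2;3* they were -0.98 and -1.28. For *PHO1* the same pairings lay between -0.57 and -0.65, and for *CASP5* between -0.84 and -1.13. By size of decrease the order was *TIP2;3*, *CASP5*, *PIP2;4*, *BOR1*, *CAX1*, *AAP3* and *PHO1*. Neighbors in that order differed by less than the SE of either, except for steps of 0.14 between *TIP2;3* and *CASP5*, 0.20 between *PIP2;4* and *BOR1* and 0.13 between *AAP3* and *PHO1*. Those steps were not tested.

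**Figure D2:**
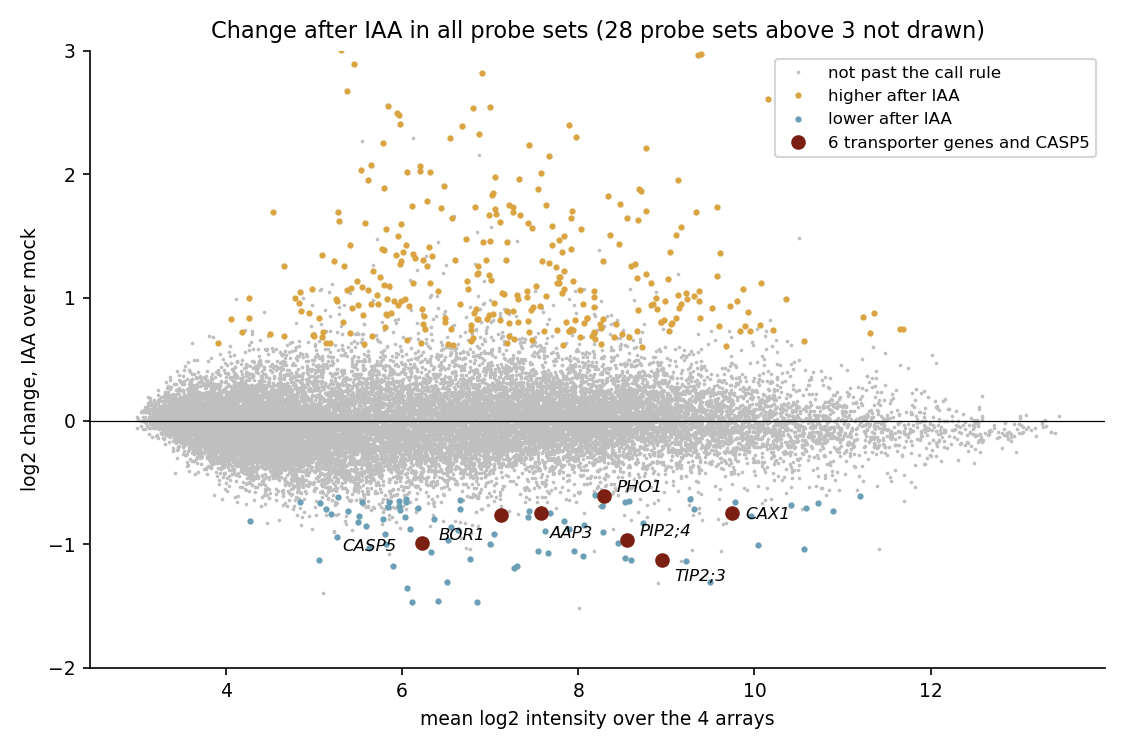
Log2 change, IAA over mock, of the probe sets (vertical axis) against their mean log2 intensity over the 4 arrays (horizontal axis). The largest increases, among them the auxin-responsive gene *GH3.3* at 7.21, lie beyond the axis and are not drawn. Gray points did not pass the call rule, orange points were called higher and blue points lower after IAA, and the large dark red points are the 7 genes, which lie between -0.61 and -1.13.

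Relatives of the 7 genes were looked up in lists of gene families, transport pathways and tissue markers. Only probe sets that the array's annotation or the study's gene lists name could be used, so 27 of 175 listed genes in 22 lists were measured, and 11 lists, among them those of PIP, TIP and NIP aquaporins, CAX exchangers, the other CASP genes, suberin synthesis, and nitrate, sulfate and metal transport, had no gene with a named probe set. These lists do not cover every gene of their kind, and some others with a named probe set are in the wider set below. Of the 27, 22 had a name that does not depend on these arrays, and of these limma called 0 higher or lower. An unadjusted p below 0.05 held in limma for 5 of the 22 downward and 2 upward, beside 10.6% and 10.1% of all probe sets, and their median log2 change was -0.14. A missing call does not show that a relative kept its level. The other 5 were named only through the study's lists of auxin-responsive transcripts, which were chosen on these arrays, and all 5 were called, 2 higher and 3 lower, so their direction is no independent evidence.

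No other measured gene of the boron and PHO1 families passed the call rule, which 0.374% of all probe sets met downward and 1.48% upward. At those shares so few genes would seldom hold a call, so nothing is read from its absence. Of the other BOR genes, 2 of 6 were measured and 0 were called by limma. *BOR3*, which encodes a protein of the same boron transporter family, had intensities of 168 and 150 after IAA, against 110 and 103 in mock. Both IAA arrays were thus above both mock arrays, the opposite of *BOR1*, but the log2 change of 0.58 ± 0.10 (SE, limma adjusted p = 0.0554) missed the call with a B of -1.03. *BOR6* was near background in all arrays (17.5 and 17.8 after IAA, 21.2 and 18.6 in mock). Of the other PHO1 family genes, 7 of 10 were measured and limma called 0, with 1 at an unadjusted p below 0.05 in each direction and a median log2 change of -0.11. *PHO1;H5* was farthest from 0, with intensities of 482 and 501 after IAA, against 381 and 329 in mock (log2 change 0.47 ± 0.11, SE, limma adjusted p = 0.0927, B = -2.34). *PHO1;H4*, known as *SHB1* for its part in blue-light control of hypocotyl growth, had a log2 change of -0.02 between means near background. Both means of *PHO1;H9* and of *PHO1;H10* and the IAA mean of *PHO1;H7* were near background too. *PHO1;H8*, above background in all arrays, read 317 and 363 after IAA, against 375 and 315 in mock, and its groups overlapped.

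In the lists of amino acid carriers the called genes, *AAP6* and *PROT2*, were higher, the opposite of *AAP3*. *AAP6*, a permease of the same family as *AAP3*, had intensities of 132 and 158 after IAA, against 37.6 and 46.7 in mock (log2 change 1.78 ± 0.15, SE, limma adjusted p = 0.00572), and kept its call in 12 of 12 other settings. *PROT2*, a proline transporter, gave 69.9 and 71.3 after IAA, against 29.6 and 38.6 in mock. Its log2 change as measured was 1.06 ± 0.14 (SE, limma adjusted p = 0.0270), with a mock mean near background, and the call was lost in 5 of 12 other settings, among them without IAA replicate 1, without IAA replicate 2 and without mock replicate 1, with changes from 0.46 to 1.26. Both were named through the auxin lists, and *AAP3* was picked for its decrease, so the opposite directions reflect choices made on these arrays and are no independent evidence. *GAT1*, a transporter for the amino acid GABA, was not called (log2 change -0.36 ± 0.13, SE, limma adjusted p = 0.217), and its IAA mean was near background.

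Among potassium carriers, *KUP8* was lower by a similar factor to the 7 genes, at 195 and 205 after IAA, against 371 and 345 in mock. Its 1.79-fold decrease (log2 change -0.84 ± 0.09, SE, limma adjusted p = 0.0146) rests on a name from the auxin lists, so it was reached through the same selection. *KUP1* had 82.7 and 104 after IAA, against 151 and 154 in mock, and missed the call (log2 change -0.72 ± 0.13, SE, limma adjusted p = 0.0592, B = -1.21), although it passed without IAA replicate 2 at -0.88. *KUP6* was also not called (-0.30 ± 0.09, SE, limma adjusted p = 0.169). The call for *KUP8* was lost without mock replicate 1, without mock replicate 2 and with the replicate number as a block, while its log2 change stayed between -0.89 and -0.68 in all 12 other settings. Of the proton pumps that energize such carriers, only the vacuolar subunit genes *VHA-A2* and *VHA-A3* had a named probe set, and limma called neither (log2 changes -0.04 and -0.09).

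**Figure D3:**
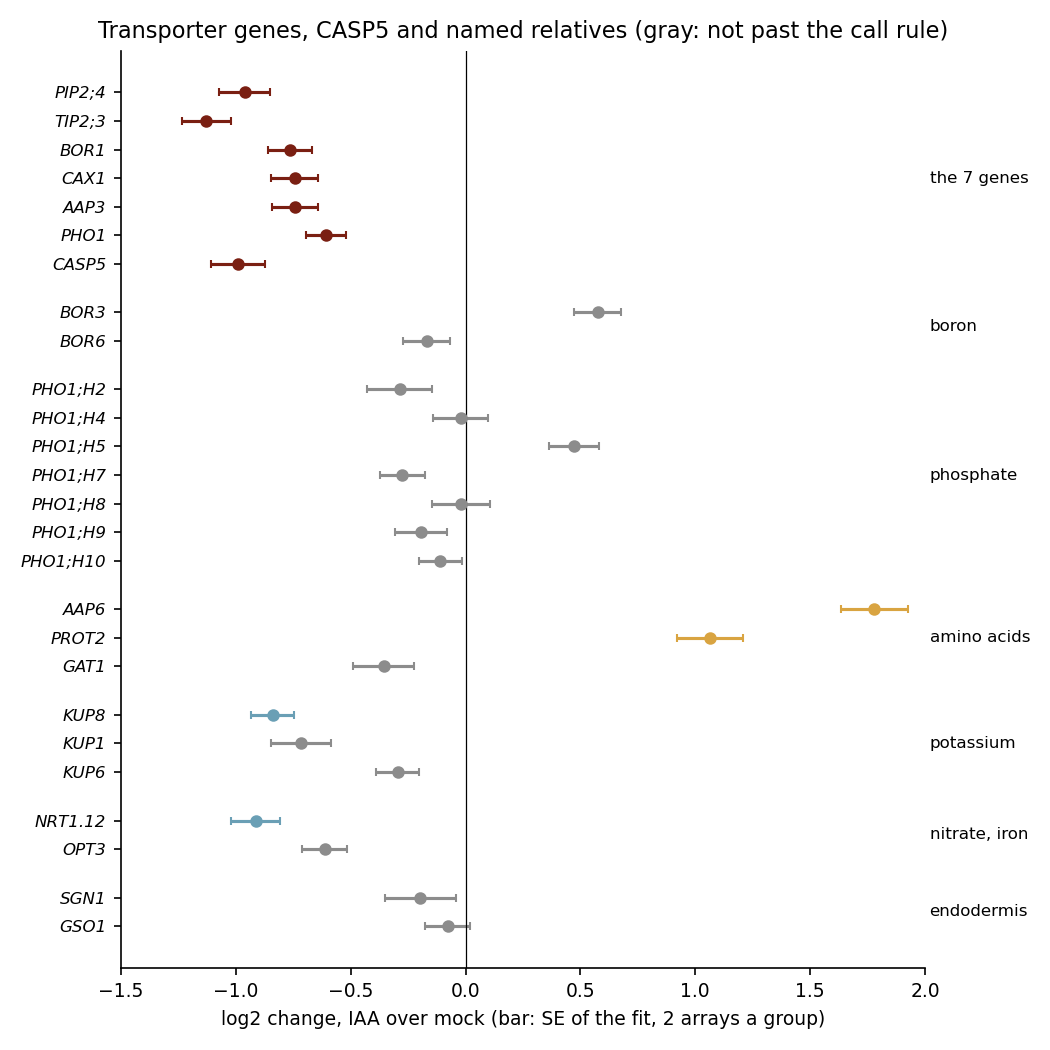
Log2 change, IAA over mock, of the 7 genes (dark red) and of measured relatives grouped by nutrient or tissue, with bars for the SE of the fit over 2 arrays a group. Blue and orange points passed the call rule in the lower and higher direction and gray points did not; the 7 genes lie between -1.13 and -0.61, *KUP8* and *NRT1.12* near them, *BOR3* and *PHO1;H5* on the other side of 0, and *AAP6* at 1.78.

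A wider set was drawn up from gene names alone, by words such as transporter, aquaporin, permease, channel or exchanger in the RefSeq names, and it held 83 transport genes beside the 7. This set was made after the arrays had been seen. Of 59 that the array's annotation names, limma called 0 in either direction, where 0.303% of all probe sets named that way were lower and 1.2% higher. An unadjusted p below 0.05 held in limma for 12 of the 59 downward and 3 upward, beside 10.6% and 10.1% of all probe sets. The median log2 change of the 59 was -0.11 beside -0.01 for all probe sets so named, and in 25 both group means were near background. Of all 83, no call was made for 73, 7 were called higher and 3 lower, beside 1.48% and 0.374% of all probe sets, and 8 of these 10 were named through the auxin lists. The 3 lower were *KUP8*, *NRT1.12* and *UMAMIT17*, all named that way. *NRT1.12*, a nitrate transporter, had intensities of 90.2 and 103 after IAA, against 188 and 175 in mock (log2 change -0.91 ± 0.11, SE, limma adjusted p = 0.0176). *UMAMIT17*, of a family that includes amino acid exporters, gave 51.2 and 49.2 after IAA, against 87.2 and 97.2 in mock (log2 change -0.87 ± 0.10, SE, limma adjusted p = 0.0154). Both calls were lost without mock replicate 1 and without mock replicate 2 (9 of 12 other settings kept each), and the changes stayed between -1.01 and -0.61 for *NRT1.12* and between -0.95 and -0.45 for *UMAMIT17*. Other genes of this set named NRT, CAX, IRT, ZIP, NRAMP or MTP were not called and changed in both directions. Log2 changes (± SE) were 0.33 ± 0.09 in *NRT1.7*, -0.42 ± 0.16 in *NRT2.5*, 0.30 ± 0.13 in *CAX7* and 0.29 ± 0.14 in *ZIP9*. They were -0.30 ± 0.12 in *NRAMP5*, -0.11 ± 0.11 in *ZIP6*, -0.08 ± 0.10 in *IRT3* and 0.04 ± 0.09 in *MTP11*. Both means of *NRT2.5* and of *NRAMP5* and the mock mean of *ZIP9* were near background.

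Several of the 7 genes are expressed mainly in roots, so root and leaf markers were read from the same arrays. Of 5 root hair genes listed, 3 were measured and 2 of them, *COBL9* and *PRP3* (both named through the auxin lists), were called lower. Their summed intensity with *EXPA7* was 473 and 458 after IAA, against 804 and 739 in mock. The call for *COBL9* held in 4 of 12 other settings and was lost when any array was left out, and that for *PRP3* held in 8 and was lost without IAA replicate 2, without mock replicate 1 and without mock replicate 2, with log2 changes from -0.70 to -0.32 and from -0.90 to -0.72. The 2 measured of 4 root genes, *PYK10* and *CO2*, summed to 2811 and 2409 after IAA, against 2508 and 3106 in mock, groups that overlapped, and limma called neither. Most of that sum is *PYK10*, and the log2 changes were -0.09 ± 0.14 for *PYK10* and -0.45 ± 0.24 for *CO2* (SE). The 2 measured of 5 leaf genes, *RCA* and *PRK*, summed to 14967 and 14616 after IAA, against 15680 and 15472 in mock, and were not called (log2 changes -0.01 and -0.20). No named probe set was found for any of 8 endodermis markers (other CASP genes, *MYB36*, *ESB1*, *PER64* and *SCR*) or 5 stele markers, so these markers give no level for the tissues in which *CASP5*, *BOR1* and *PHO1* are known to act. In a separate list of 8 Casparian strip and endodermis genes, 2 were measured. These were the kinase genes *SGN1* and *GSO1*, which had log2 changes of -0.20 ± 0.15 and -0.08 ± 0.10 (SE) and were not called by limma. The part of these tissues in the decrease of the 7 genes was not tested.

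The auxin labels were checked with *GH3.3*. This gene, an early auxin-responsive gene for an IAA-conjugating enzyme, read 4071 and 4053 after IAA, against 26.6 and 28.4 in mock. Of the RNA controls, the 3′ over 5′ ratio of GAPDH was 1.6 and 1.69 after IAA, against 1.55 and 1.56 in mock, and that of actin was 1.62 and 1.70 after IAA, against 1.73 and 1.51 in mock. The 25S ribosomal RNA control was lower after IAA, at 14.4 and 20.1, against 41.0 and 33.3 in mock. Both IAA values and that of mock replicate 2 were below the background level of 37.6. Whether these values had a part in the decrease of the 7 genes was not tested.

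Profiles over the 4 arrays were compared by the root mean square distance of log2 values, each gene centered on its own mean, among 6338 probe sets that name 1 gene and reach the median intensity. With 4 arrays such likeness carries little information. *CAX1* lay nearest to AT3G22104 (distance 0.0093) and *PHO1* to *RHS13*, a root hair gene (0.012). *AAP3*, *TIP2;3* and *CASP5* each lay nearest to a plastid-encoded transcript, *matK* (0.018), *rpl22* (0.044) and *rps19* (0.035). *BOR1* lay nearest to *PRP3* (0.031) and *PIP2;4* to AT1G72810 (0.064). All of these nearest genes except AT1G72810 were called lower. The 7 genes were picked as lower in these same arrays, so a near profile is lower by construction and nothing is read from those calls. Within the 7, the most alike were *BOR1* and *CAX1* (0.047).

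Changing the processing left every one of the 7 genes lower after IAA but not always past the call rule. Over 12 other settings the log2 change of *TIP2;3* stayed between -1.21 and -1.0, that of *PIP2;4* between -1.08 and -0.82 and that of *PHO1* between -0.67 and -0.50. Not all 12 could remove a call. Without the rule on B no called gene could lose its call. An adjusted p below 0.05 with B above 0 gave the same 337 higher and 85 lower calls as the reported setting. The call held in 11 of the 12 settings for *TIP2;3*, in 9 for *PIP2;4* and *CASP5*, in 8 for *BOR1* and *AAP3*, in 7 for *CAX1* and in 5 for *PHO1*. Of the 7 genes, 4 passed without IAA replicate 1, 4 without IAA replicate 2, 2 without mock replicate 1 (*PIP2;4* and *TIP2;3*) and 1 without mock replicate 2 (*TIP2;3*). These fits have 3 arrays and assume that a lone array varies like the other group.

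**Figure D4:**
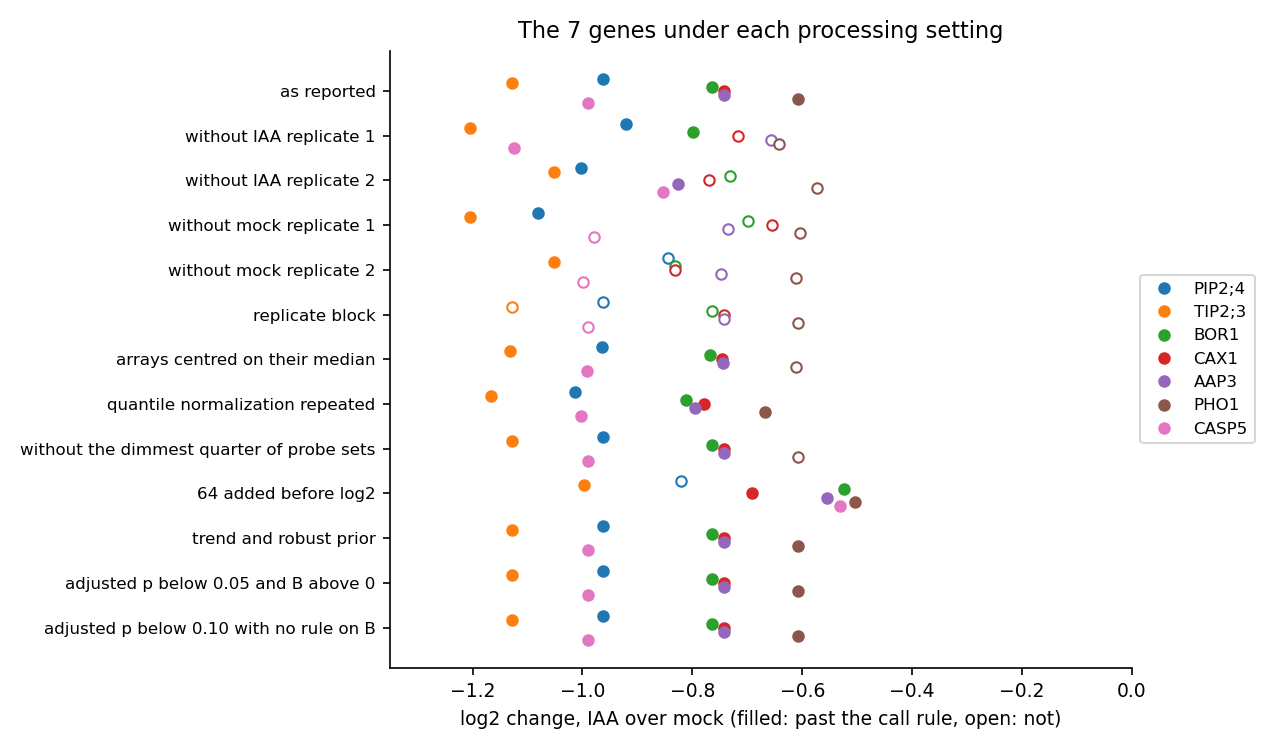
Log2 change, IAA over mock, of each of the 7 genes (colors) under the reported setting (top) and 12 other settings (rows). Filled points passed the call rule and open points did not; all points lie below 0, between -1.21 and -0.50, and the open points gather where a mock array was left out and in the fit with a replicate block.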

How the data were processed

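Total RNA of seedlings was hybridized to 4 Affymetrix arrays, 2 IAA and 2 mock. Groups came from the sample descriptions and replicate numbers from the titles. The deposited intensity values, 1 per probe set, were made by the authors with rma of the Bioconductor affy package (version not given in the sources used here), which quantile-normalizes arrays, so a shift of most transcripts in 1 direction would not show. Values ran from 7.47 to 11463, with array medians of 62.2 to 63.5.

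Of 22810 probe sets, 64 controls were set aside. Log2 values without pseudocount were fitted on treatment alone with limma 3.58.1 (R 4.3.3), with Benjamini-Hochberg adjustment over 22746 probe sets. On data simulated with 200 changed probe sets, the call rule recovered 17.3% of 1.5-fold and 85% of 2-fold changes. Of the calls made there, 9.05% were false. Most changes near 1.5-fold would thus be missed. Each log2 change compares the 2 groups within a probe set. Intensities of different probe sets were also set side by side, for the background level, the intensity limits and the marker sums.

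The array's annotation named 1 gene for 13513 probe sets and several for 503. The study's brassinosteroid (BR) lists named 335 more and its auxin lists 150, used for identity only, and 8245 stayed unnamed. Of the 7 genes, 6 were named through the auxin lists and *CASP5* through the BR lists, although the auxin lists hold it as well. Each gene had 1 probe set. Names were updated through RefSeq (TAIR10.1). The 7 genes and the lists were chosen with earlier results of these data known. Named genes were the 7, of each list the called members with the 2 largest changes in each direction or else the largest change at or above the median intensity, and the nearest profile of each. Other named genes, among them the transport genes chosen by name, *OPT3* and the dim or overlapping relatives, were picked after values were seen. A planned choice by protein identity was not made, because no protein sequences were used here. Near background means at or below 37.6, a high limit, since only 1 *Bacillus* control reached it and the next highest control reached 19.2. That samples of a group are independent biological replicates is stated by the study. Alternatives were each array left out, a replicate block, median centering, repeated quantile normalization, no dimmest 25% of probe sets, 64 added before log2, a trended robust prior, an adjusted p below 0.05, and no rule on B. Dropping the rule on B can add calls but cannot remove one.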

Additional observations from a re-analysis of the deposited data

How the results depend on the processing

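Leaving out 1 array at a time gave 158 to 397 higher and 20 to 162 lower probe sets, against 337 and 85 with all arrays, 1 to 4 of the 7 genes past the call rule, a median log2 change of the 7 from -0.83 to -0.74, and 1 to 2 higher and 0 to 2 lower calls in the related lists, against 2 and 3. The counts of higher and lower probe sets were 158 and 21 without mock replicate 1 and 196 and 20 without mock replicate 2, and 162 were lower without IAA replicate 2. With the replicate number as a block, 145 probe sets were higher and 10 lower, the related lists gave 1 and 0, and 0 of the 7 genes passed in limma (adjusted p from 0.119 to 0.184), with unchanged log2 changes. The sources used here do not say whether the numbers pair the arrays. Deviations of same-numbered arrays correlated at -0.19 across probe sets, which cannot decide this with 1 difference a group. With the numbers crossed, a fit added after seeing the data, 299 were higher and 86 lower. Without the rule on B, 880 were higher and 513 lower and the lists gave 4 and 5. With 64 added before log2 the lists gave 1 higher call and the median of the 7 was -0.55. The causes were not tested. No other setting moved a count by over 1.5 times, and no direction among the 7 genes changed.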

Other observations

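Of the 83 transport genes chosen by name, 7 were called higher after IAA, 3 lower and 73 neither, with a median log2 change of -0.09. Over all probe sets 1.48% were called higher and 0.374% lower, with a median of -0.02. The higher ones were *AAP6*, *PROT2* and the 5 that follow, which were picked for their calls. *NHX4*, a sodium and proton exchanger, had intensities of 70.8 and 68.4 after IAA, against 28.1 and 23.8 in mock, where it was near background (measured log2 change 1.43 ± 0.11, SE, limma adjusted p = 0.00459). The mitochondrial dicarboxylate carrier genes *DIC2* and *UCP5* gave 98.8 and 109, and 80.7 and 88.0, after IAA, against 38.2 and 42.0, and 34.2 and 45.6, in mock. Their log2 changes were 1.37 ± 0.10 and 1.09 ± 0.15 (SE, limma adjusted p = 0.00408 and 0.0312). *DIC2* and *NHX4* kept the call in 12 of 12 other settings. *UCP5* kept it in 7 and lost it without IAA replicate 1, without IAA replicate 2 and without mock replicate 1, among others, at log2 changes from 0.52 to 1.30 over the 12 settings. *WAT1*, which encodes an auxin transporter of the vacuole, read 1505 and 1283 after IAA, against 373 and 470 in mock (log2 change 1.73 ± 0.15, SE, limma adjusted p = 0.00638), and it kept the call in 11 of 12 other settings, all but the replicate block. *NST-K1*, a nucleotide sugar transporter gene, read 260.2 and 262 after IAA, against 121 and 154 in mock (log2 change 0.93 ± 0.13, SE, limma adjusted p = 0.0313), and it lost the call in the same settings as *UCP5*, at log2 changes from 0.69 to 1.1. *NHX4*, *UCP5* and *NST-K1* were named through the auxin lists, *DIC2* and *WAT1* through lists from the brassinosteroid arrays of the study. Of all probe sets named through the auxin lists 73.3% were called higher, and through the BR lists 18.5%. The 16 transport genes named through the BR lists held 2 such calls, so these calls are not read as particular to transport genes.

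The genes next to the 7 on the chromosomes were read for comparison. Of 14 neighboring protein-coding genes, 9 had a named probe set, and limma called 0 of them, with log2 changes from -0.61 to 0.34. The lowest was AT2G38160, beside *CAX1*.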
